A study of Mus musculus with 18 samples.

Results

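Cytosolic ribosomal protein mRNAs were examined in gracilis muscle, a hindlimb muscle of mixed fibre types, after clenbuterol, a β2-adrenergic receptor agonist that promotes muscle growth. A gene was included where a probe set had a single gene symbol, of the form Rpl, Rps or Rplp with a number, after pseudogenes and the S6 kinases had been set aside. Each gene was represented by its probe set with the highest mean log2 signal. The rule gave 45 genes, read by 98 probe sets, out of 18193 genes with a probe set of 1 symbol and 45037 probe sets in all. There were 22 proteins of the large subunit, 21 of the small subunit and 2 of the stalk. Another 28 ribosomal protein genes were seen only in probe sets carrying several symbols, so they are not members.

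RNA came from male C57BL/6J mice, 3 to 5 wk of age, given 10 daily intraperitoneal injections. C mice had 10 injections of vehicle, 24 h mice had 9 of vehicle and then 1 of clenbuterol at 1 mg/kg, and 10 D mice had 10 of clenbuterol at 1 mg/kg, with muscle taken 24 h after the last injection. Each group had 3 RNA pools of 3 mice each, and each pool was hybridised to an MOE430A and an MOE430B chip. The 27 mice had been chosen so that treated and C animals differed as much as possible in blood urea and growth, and treatments had been assigned by cage, so p-values measure the spread between these pools only.

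Ribosomes translate mRNA into protein. The small subunit binds the mRNA and decodes it, the large subunit joins the amino acids, and the stalk of the large subunit recruits the factors that drive elongation. In growing muscle the number of ribosomes may limit how much protein can be made. The mRNAs for ribosomal proteins are known as TOP mRNAs because they begin with a C followed by a run of pyrimidines. Through this run mTORC1 signalling controls their translation. That control acts on how often the mRNA is translated, which an array of mRNA abundance does not read.

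The pyrimidine start is shown for members on which the results below turn. RefSeq promoters (GRCm38.p6) were matched for 39 of the 45 members. A run of a C followed by at least 4 bases that are each C or T, on the sense strand, covered the annotated start in 13 of the 39 (33.3%), against 2542 of 27025 genes (9.41%). Within 20 bases of the start a run was found in 34 members (87.2%), against 56.4% of genes. A match describes the letters only. In the 30 bases around the start (15 before it and 15 from it on), capitals mark the run that covers the start. The first 4 genes had one, and the last 3, for Rpl3l at the more upstream of its 2 annotated starts, had none.
Rps6 (chr4:86857353-86857382, minus strand): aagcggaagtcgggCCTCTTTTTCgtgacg
Rpl7a (chr2:26910792-26910821, plus strand): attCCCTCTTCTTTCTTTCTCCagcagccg
Rps10 (chr17:27635230-27635259, minus strand): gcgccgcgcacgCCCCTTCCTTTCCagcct
Rpl35 (chr2:39005117-39005146, minus strand): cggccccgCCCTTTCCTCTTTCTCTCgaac
Rpl3l (chr17:24727811-24727840, plus strand): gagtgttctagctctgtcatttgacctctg
Rplp0 (chr5:115559452-115559481, plus strand): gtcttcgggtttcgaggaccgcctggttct
Rps2 (chr17:24720048-24720077, plus strand): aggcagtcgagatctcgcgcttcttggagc

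The levels below are signal intensities divided by the median of their array, so a level of 1 is that median. Of the 45 genes, 42 passed the filter on dim probe sets (mean log2 signal at or above the 25th percentile of the chip). Rpl39l and Rps4l, paralogs that are largely testis-restricted in mouse, and Rps16, a small-subunit protein, did not pass, and their probe sets reached a level of at most 0.771 in any pool. Among the 42, the probe sets of 35 genes lay between 10.1 and 178 in every pool. Those of the other 7 (Rpl12, Rpl14, Rpl27a, Rpl39, Rps6, Rps25 and Rps27) lay between 0.174 and 5.16, so those genes were read by dim probe sets, and levels of different probe sets were not set against each other. These 7 genes and Rps16 also had tested probe sets carrying several symbols, which the rule leaves out. The levels given here are therefore not the only reading of these genes on the arrays.

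Array medians were 30.8 to 88.4 signal units on MOE430A and 13.2 to 37.1 on MOE430B. Pool 2 of 24 h and pool 2 of 10 D stood apart from the other pools for many members, as described further on. Values without them are given, beside the result or in the closing section, for many but not all of the named genes whose change rests on them. All 14 muscle fibre markers were measured, with summed levels of 2652 to 4253 in C, 2262 to 3218 in 24 h and 1954 to 3468 in 10 D. Summed levels of the 16 macrophage and leukocyte markers measured were 29.9 to 37.2 in C, 35.1 to 64.4 in 24 h and 30.8 to 45.4 in 10 D. Endothelial markers (10 measured) summed to 35.2 to 39.7 in C, 41.1 to 48.5 in 24 h and 32.5 to 36.9 in 10 D. No listed marker had a signal of 0 in any pool. The part of other cell types in the results was not tested, and in a whole muscle fewer cells of a type and less RNA per cell cannot be told apart.

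No ribosomal protein mRNA passed the test 24 h after 1 dose of clenbuterol. In limma fits over all 33752 probe sets tested, 0 of 42 members reached an adjusted p under 0.1 in 24 h against C, where 0.456% of probe sets did. At an unadjusted p under 0.05 limma gave 1 member, Rpl11, against 8.55% of probe sets. An ordinary one-way model gave 3, against 2819 of the 33752 probe sets. More members were higher than lower, by small amounts. The median log2 change was 0.19 (1.14-fold), and 32 of 42 members were higher in 24 h (76.2%), against a median of 0.02 and 51.8% over all probe sets. Over the brightest tested probe set of every gene (15184 genes), the median was 0.04 and 53.5% were higher. The members share the same 6 arrays, so these 32 are not independent observations. The spread of the member median between pools of a group was 0.140 on the log2 scale. Under the other scalings tried the median was 0.14 to 0.18, with 28 to 32 members higher, and without C pool 3 it was 0.32. Leaving out pool 2 of 24 h and of 10 D gave 0.21, with 34 members higher.

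Both subunits had medians above 0. Large-subunit members had a median log2 change of 0.30 (16 of 21 higher) and small-subunit members 0.18 (15 of 19 higher), while of the stalk proteins Rplp2 was at 0.19 and Rplp0 at -0.17. The single-gene intervals were wide. The 95% interval of the change lay within a log2 change of 1 in either direction for 25 of the 42 members, and for the others it reached past a 2-fold change.

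**Figure D1:**
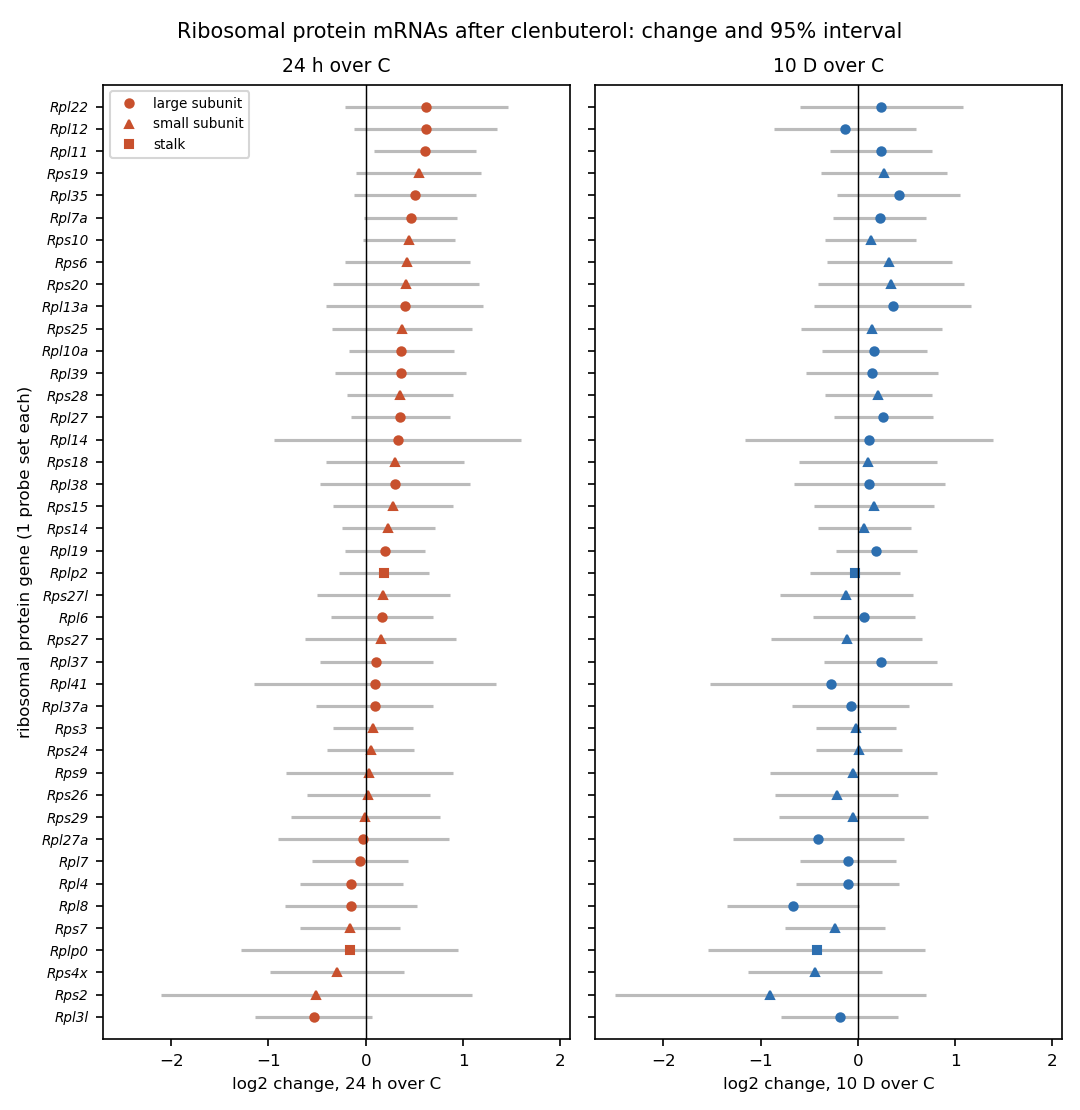
Log2 change of each tested member (1 probe set each) in 24 h over C (left) and 10 D over C (right), with 95% intervals from limma as grey lines, sorted by the 24 h change. Points lie to the right of 0 for 32 of 42 members at 24 h and for 23 of 42 at 10 D, and the interval of Rpl11 at 24 h is the only 1 that does not cross 0.

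Rpl11 had the smallest p at 24 h. With Rpl5 and 5S rRNA it forms the particle that can bind Mdm2 when ribosome assembly fails. Its levels were 19.2, 17.0 and 28.8 in the C pools, 28.2, 37.5 and 31.4 in the 24 h pools and 24.3, 27.2 and 23.5 in the 10 D pools. The lowest 24 h pool fell just under the highest C pool, so the groups overlapped. The log2 change in 24 h was 0.61 (1.52-fold, SE 0.24, 95% interval 0.08 to 1.13, unadjusted p = 0.0278 and adjusted p = 0.496 by limma).

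For 6 of 42 members (14.3%) every 24 h pool lay above every C pool, against 9.6% of all probe sets. Among the brightest tested probe sets of every gene, this held for 1738 of 15184. The 6 members were Rpl7a, Rpl12, Rps6, Rps10, Rps15 and Rps25. Rpl7a, a large-subunit protein, had levels of 69.1, 61.0 and 94.2 in C, 100.01, 104 and 100.3 in 24 h and 74.4, 95.9 and 89.1 in 10 D. Its 3 pools at 24 h were close together and above all C pools, while the 10 D pools overlapped C (24 h log2 change 0.46, SE 0.22, adjusted p = 0.604). Rps10, a small-subunit protein modified at stalled ribosomes, had levels of 31.4, 43.9 and 39.1 in C, 51.5, 48.1 and 54.9 in 24 h and 40.02, 35.7 and 49.8 in 10 D. Its pattern was like that of Rpl7a, with a gap to C at 24 h and overlap at 10 D (24 h log2 change 0.44, SE 0.21, adjusted p = 0.612). That holds for the probe set used, since the 6 tested probe sets of Rps10 gave 24 h log2 changes from -0.29 to 0.51. Rpl12, which lies at the base of the stalk, was read at levels below the array median or close to it, with 0.649, 0.722 and 0.689 in C, 0.808, 1.38 and 1.04 in 24 h and 0.626, 0.872 and 0.451 in 10 D.

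Rps6, the small-subunit protein phosphorylated by the S6 kinases downstream of mTORC1, was also read by a dim probe set. Its levels were 1.27, 1.42 and 1.203 in C, 1.57, 2.08 and 1.63 in 24 h and 1.91, 2.11 and 1.05 in 10 D. The 24 h pools lay above C, and the 10 D pools lay on both sides of the C range (24 h log2 change 0.43, SE 0.29, adjusted p = 0.742). Phosphorylation of the protein was not measured.

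Rps19, the gene most often mutated in human Diamond-Blackfan anaemia, had levels of 14.3, 14.9 and 17.4 in C, 20.8, 17.3 and 32.0 in 24 h and 22.6, 13.02 and 22.1 in 10 D. Pools 1 and 3 of both treated groups were above C and pool 2 was not. The 24 h log2 change was 0.54 (SE 0.29, adjusted p = 0.657), and without pool 2 of 24 h and of 10 D it was 0.74 (adjusted p = 0.186). Without 24 h pool 3, the highest of the 9, it was 0.29. Rpl35, a protein beside the exit of the nascent chain, showed the opposite arrangement, with 52.5, 45.3 and 66.6 in C, 62.2, 99.7 and 73.1 in 24 h and 52.6, 97.8 and 73.9 in 10 D. Here pool 2 was the highest of its group in both treatments, and the 24 h log2 change of 0.51 (SE 0.28, adjusted p = 0.677) became 0.32 without 24 h pool 2.

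Rpl3l stood at the other end. This paralog of Rpl3 is found almost only in striated muscle, where it takes the place of Rpl3 in ribosomes, and in mice it is lost when muscle is made to grow. Its levels were 39.1, 40.8 and 38.6 in C, 31.3, 19.4 and 33.5 in 24 h and 40.8, 25.2 and 40.6 in 10 D. It was the only 1 of 42 members with every 24 h pool below every C pool, against 7.23% of all probe sets, and at 10 D pools 1 and 3 were within the C range. The 24 h log2 change was -0.53 (0.691-fold, SE 0.27, 95% interval -1.13 to 0.07, unadjusted p = 0.0762, adjusted p = 0.641), and -0.29 without 24 h pool 2. Muscle fibre markers were also lower in 24 h than in C in 14 of 14 cases, with a median log2 change of -0.25. By limma 0 of them had an unadjusted p under 0.05, against 8.55% of all probe sets. The part of these markers in the value of Rpl3l was not tested. Rpl3 itself was read only by probe sets with several symbols and is not described.

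Rpl22, a large-subunit protein that many cells can do without, had the highest 24 h estimate, a log2 change of 0.62 (SE 0.38, adjusted p = 0.706). Its levels on MOE430B were 67.8, 60.5 and 83.5 in C, 77.7, 161 and 100.2 in 24 h and 63.4, 94.0 and 95.3 in 10 D, with 24 h pool 2 far above the rest. Without 24 h pool 2 the change was 0.33, no longer the highest. Its 3 tested probe sets did not run together, with 24 h log2 changes from -0.57 to 0.62. Rpl22l1, the paralog that can replace it, lies outside the rule and had a higher 24 h estimate. Its levels were 13.4, 13.01 and 19.3 in C, 27.8, 26.0 and 31.9 in 24 h and 24.2, 20.4 and 24.1 in 10 D. Every treated pool was above every C pool, with a log2 change of 0.93 in 24 h (SE 0.22, adjusted p = 0.163) and 0.61 in 10 D (SE 0.22, adjusted p = 1.00), neither past the threshold. It was the 1 of 3 measured relatives outside the rule with such a gap. The 24 h log2 change was -0.0014 (SE 0.23) for Rpl7l1, a paralog of Rpl7, and -0.14 (SE 0.30) for Rps3a1, a small-subunit protein, with overlapping pools in both. Over all probe sets, 9.6% had every 24 h pool above every C pool, and 5.76% had every 10 D pool above. The share with both gaps was not counted.

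A paralog pair with both genes tested as members was Rps27 and Rps27l, which in human cells is a p53 target. Rps27 was dim, with 1.10 to 1.96 in C, 1.34 to 1.71 in 24 h and 0.991 to 2.17 in 10 D. Rps27l had 13.3 to 21.9 in C, 13.04 to 25.7 in 24 h and 11.5 to 18.3 in 10 D. Both overlapped C throughout, with 24 h log2 changes of 0.16 (SE 0.35) and 0.18 (SE 0.31). Rpl39, at the exit tunnel, was at 2.27 to 3.13 in C, 2.52 to 5.16 in 24 h and 2.24 to 3.25 in 10 D. Its 24 h log2 change was 0.36 (SE 0.30), and 0.04 without 24 h pool 2.

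**Figure D2:**
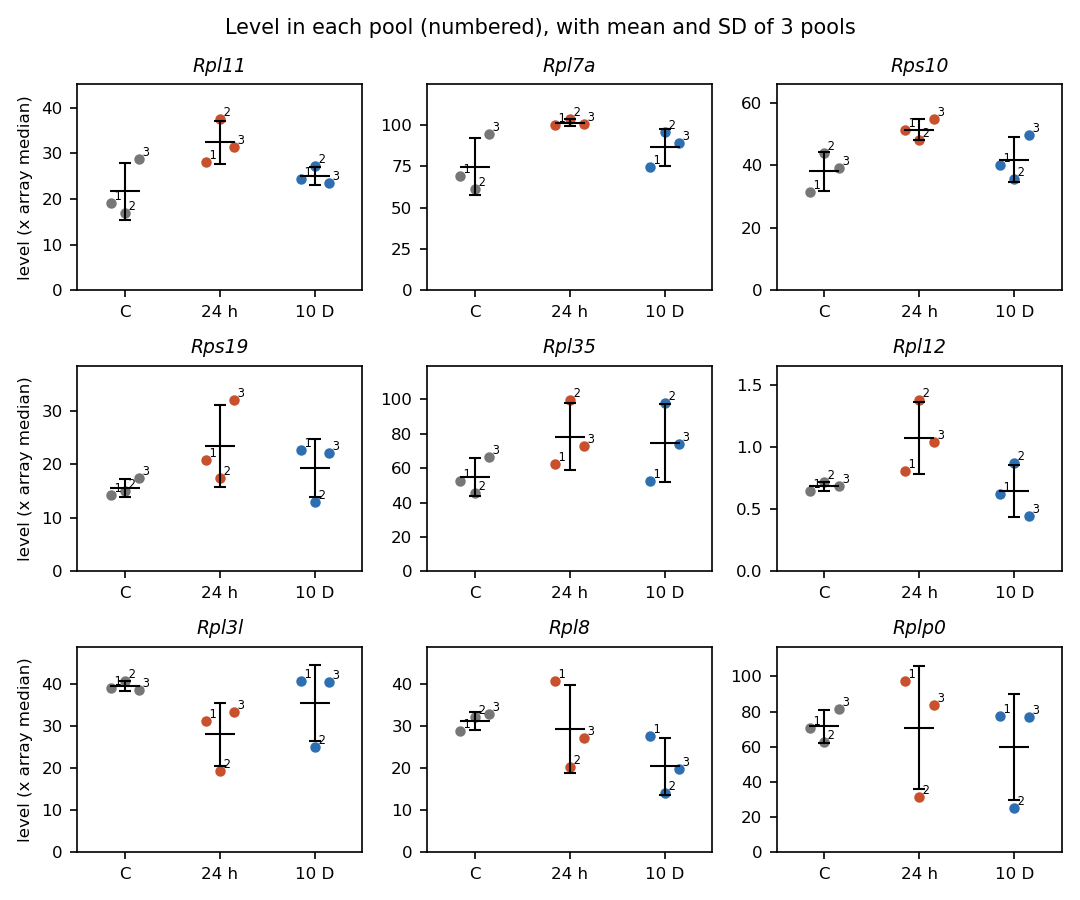
Level (signal over array median) of 9 members in each pool of C, 24 h and 10 D, with the pool number beside each point and a bar for the mean ± SD of 3 pools. Rpl7a and Rps10 at 24 h lie above all C pools, Rpl3l at 24 h lies below them, and pool 2 is far below pools 1 and 3 for Rplp0 in both treated groups.

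After 10 daily doses no ribosomal protein mRNA passed the test, and estimates above and below 0 were about as common. In 10 D against C, 0 of 42 members passed the adjusted threshold in limma, as did 0.0% of all probe sets. At an unadjusted p under 0.05 limma gave 0 members, against 4.56% of probe sets. The ordinary one-way model also gave 0 members, against 1600 of the 33752 probe sets. The median log2 change was 0.06 and 23 of 42 members were higher (54.8%), against 51.6% of all probe sets. Among the brightest tested probe sets of every gene, 53.1% were higher. The large subunit had a median of 0.12, the small subunit 0.02. For 31 of 42 members the 95% interval lay within a log2 change of 1 in either direction. No member had every 10 D pool above every C pool, where 5.76% of probe sets did, and 1, Rpl8, had every pool below, where 4.52% did.

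Rpl8, a large-subunit protein close to the peptidyl transferase centre, had levels of 28.8, 32.1 and 32.8 in C, 40.7, 20.2 and 27.0 in 24 h and 27.5, 14.05 and 19.7 in 10 D. The 10 D pools were all under the lowest C pool, and the 24 h pools lay on both sides of C. The log2 change in 10 D was -0.66 (0.632-fold, SE 0.31, 95% interval -1.34 to 0.02, unadjusted p = 0.0545, adjusted p = 1.00), and -0.42 without 10 D pool 2. The highest estimates in 10 D were those of Rpl35 (log2 change 0.42, SE 0.28), Rpl13a (0.36, SE 0.36), the target of interferon-gamma signalling in human myeloid cells, and Rps20 (0.34, SE 0.34), a small-subunit protein. Without 10 D pool 2 they were 0.20, -0.01 and 0.01. The lowest were those of Rps2 (-0.90, SE 0.72), Rpl8 and Rps4x (-0.44, SE 0.31), the X-linked form of this small-subunit protein. Without 10 D pool 2 the change was -0.02 for Rps2 and -0.10 for Rps4x.

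Set directly against 24 h, the 10 D estimate was below 0 for 39 of 42 members, by small amounts. The median log2 difference was -0.17, and 3 of 42 members were higher in 10 D (7.14%), against 48.9% of all probe sets. In the small subunit 0 of 19 were higher, and in the large subunit 3 of 21. Limma passed 0 of 42 members, against 0.0504% of probe sets. It gave 1 unadjusted p under 0.05, for Rpl12 (-0.75, SE 0.33, unadjusted p = 0.046 and adjusted p = 0.911 by limma), against 5.48% of probe sets. The ordinary one-way model also gave 1, against 1971 of the 33752 probe sets. Only Rpl7a and Rpl11, 2 of 42 (4.76%), had every 10 D pool below every 24 h pool, against 5.1% of probe sets, and none had every pool above, against 4.17%. The number higher depended on 10 D pool 1, without which 16 of 42 members were higher and the median was -0.06. Each pair of contrasts shares a group of 3 pools, so the 3 sets of values are not independent. Across the 3 groups together, the F test passed 0 of 42 members, against 0.216% of probe sets, with 0 at an unadjusted p under 0.05, against 6.62%.

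**Figure D3:**
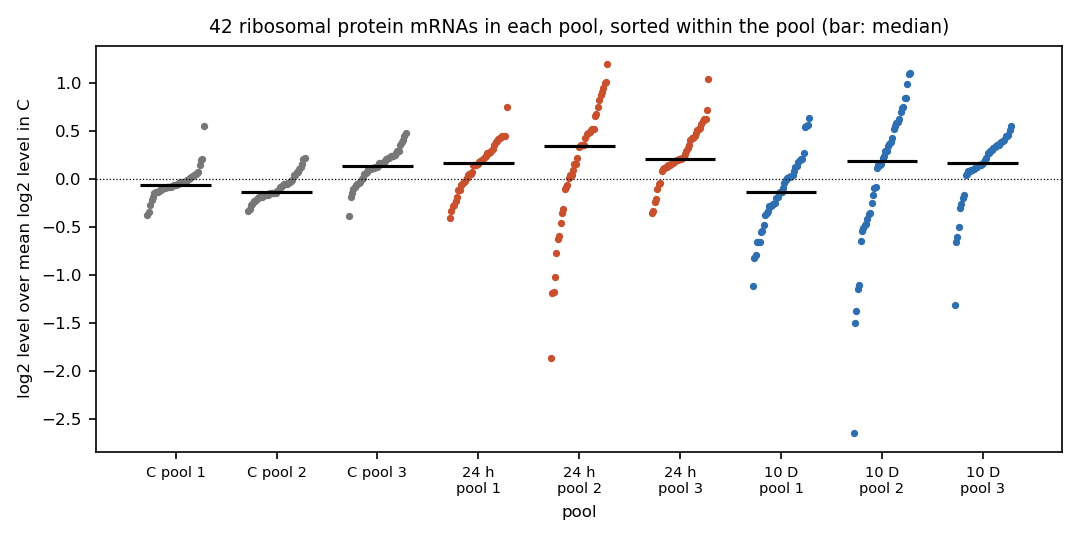
Log2 level of each of the 42 tested members in each pool over its mean log2 level in the C pools, sorted within the pool, with a black bar at the median. The medians of the 24 h pools are 0.17, 0.34 and 0.21 and those of the 10 D pools are -0.13, 0.19 and 0.17, and the members spread furthest apart in pool 2 of 24 h and of 10 D.

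Pool 2 of 24 h and pool 2 of 10 D divided the ribosomal protein genes. The SD over members of the log2 level over the C mean was 0.68 in 24 h pool 2 and 0.78 in 10 D pool 2, against 0.14 to 0.39 in the other 7 pools. As departures from pools 1 and 3, the spread was not larger over members than over all probe sets tested on both chips. Those include dim probe sets, and their median SE in 24 h against C was 0.37, against 0.29 for members. No set of like brightness was compared. Departures from pools 1 and 3 of the same group had an SD of 0.72 over members and 0.92 over all probe sets tested in 24 h pool 2, and of 0.88 over members and 0.95 over all in 10 D pool 2. For 9 members (21.4%) both of these pools were lower than all 7 others, against 12.8% of all probe sets, and for 10 members (23.8%) both were higher, against 9.27%. The remaining 23 did neither. This pattern was noticed in the data, its genes were named after their values were seen, and it was not tested.

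The lower genes were Rpl3l, Rpl4, Rpl7, Rpl41, Rplp0, Rps2, Rps4x, Rps26 and Rps27l. Rps2, at the mRNA entry of the small subunit, had levels of 27.5 in 24 h pool 2 and 15.9 in 10 D pool 2, against 90.3 to 121 in the other 7 pools. Rplp0, the stalk protein often used as a stable reference gene in PCR, had 31.3 in 24 h pool 2 and 25.1 in 10 D pool 2, against 62.7 to 97.5 elsewhere. Rpl41, the smallest ribosomal protein, had 25.8 in 24 h pool 2 and 22.5 in 10 D pool 2, against 51.3 to 98.6. For all 3 genes pools 1 and 3 of both treated groups lay far above pool 2. Without 24 h pool 2 the 24 h log2 change of Rplp0 was 0.34 where it was -0.17 with it, and that of Rps2 was 0.17 where it was -0.51.

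The higher genes were Rpl13a, Rpl35, Rpl38, Rps6, Rps9, Rps14, Rps18, Rps20, Rps28 and Rps29. Rpl38, required for translation of certain Hox mRNAs in mouse embryos, had levels of 178 in 24 h pool 2 and 176 in 10 D pool 2, against 66.5 to 127 in the other pools. Rpl13a had 122 in 24 h pool 2 and 134 in 10 D pool 2, against 48.5 to 80.7, and Rps20 had 82.0 and 86.6 in those pools, against 34.6 to 55.8. Without 24 h pool 2 the 24 h log2 change of Rpl13a was 0.13 where it was 0.40 with it. That of Rps20 was 0.16 where it was 0.41. The higher genes were 7 of the small and 3 of the large subunit, and the lower genes 4 of each and 1 of the stalk, so each side held members of both subunits.

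**Figure D4:**
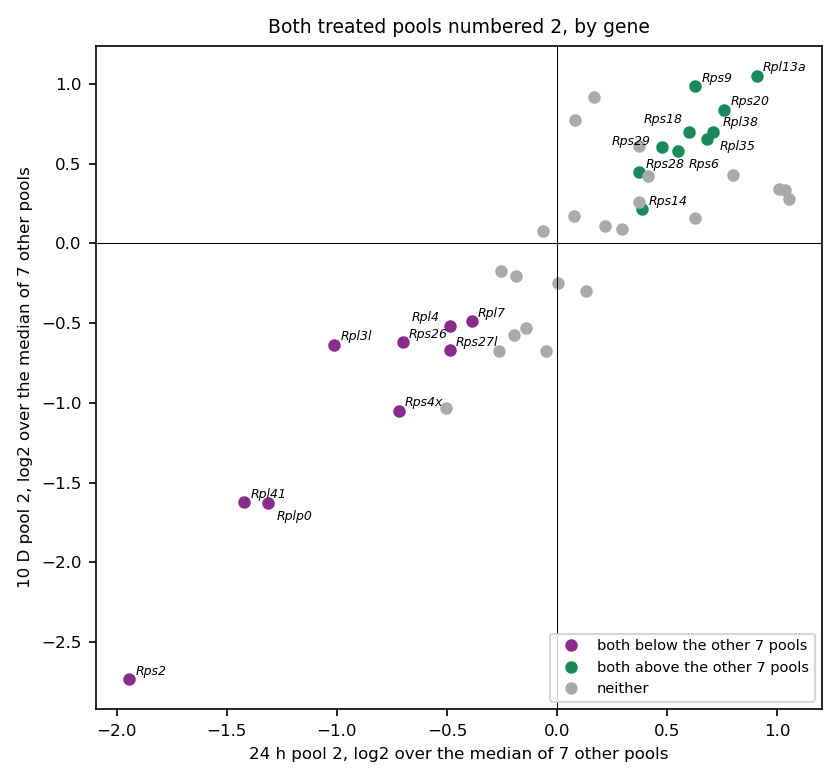
Each point is a tested member, placed by the log2 ratio of its level in 24 h pool 2 (horizontal) and in 10 D pool 2 (vertical) to the median of the 7 other pools. Members in purple were below all 7 other pools in both and members in green above, from Rps2 at -1.94 and -2.73 to Rpl13a at 0.91 and 1.05.

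The departures of pool 2 from pools 1 and 3 of its own group were compared between 24 h and 10 D. Their Pearson correlation was 0.86 over the 42 members, against 0.35 over all probe sets tested on both chips. Over all probe sets tested on MOE430A, which read all tested members but Rpl22, it was 0.56. The points share 2 arrays and the same probe sets, and the values are a description. For pool 1 the same correlation over members was 0.69 and for pool 3 it was 0.40, against 0.39 and 0.10 over all probe sets tested on MOE430A. Array medians on MOE430A were 35.7 in 24 h pool 2 and 33.6 in 10 D pool 2, lower than in 6 of the other 7 pools, although C pool 1 had 30.8 and did not divide the members. On MOE430B, which read 1 of the 42 members, they were 13.2 in 24 h pool 2 and 14.9 in 10 D pool 2, lower than in all 7 others (17.5 to 37.1). Nothing in the labels ties these pools to each other beyond their number, and the part of depth, RNA quality or a batch was not tested.

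The kind of probe set differed between the genes on either side. Of the 10 higher genes, 9 were read by probe sets with the suffix _x_at, in which some probes can match other transcripts, against 4 of the 9 lower genes and 3 of the 23 others. Whether a pyrimidine run covered the annotated start differed as well, counted over all members with a promoter entry. Of the sequences shown above, those of Rps6 and Rpl35 are from the higher genes and those of Rpl3l, Rplp0 and Rps2 from the lower genes. Rpl7a and Rps10 are on neither side. The pyrimidine run covered the start in 5 of the 7 higher genes with a promoter entry (Rpl35, Rpl38, Rps6, Rps9 and Rps18), in 0 of 8 lower genes with one, and in 8 of 22 others. This difference depends on the exact base annotated as the start. With a run accepted within 20 bases of an annotated start, every higher gene with an entry but Rps28 had one. So did every lower gene with an entry but Rpl41 and Rps4x. The suffixes and the start sequences were looked at after the genes had been grouped by their values.

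Different probe sets of the same gene did not always move alike in these pools. Of the 22 members with over 1 probe set, 20 had over 1 that was tested (65 probe sets). In 24 h pool 2 the 3 probe sets of Rpl41 departed from the mean of pools 1 and 3 by log2 values of -1.92 to 1.97, those of Rps9 by -1.79 and 0.67, and the 6 of Rps10 by -0.89 to 1.09. For Rps9 and Rps10 1 probe set was below all other pools in both pools numbered 2 and another was above them. In contrast, the 3 probe sets of Rps29 departed by 0.64 to 0.67. For the comparison of 24 h with C, the probe sets of 11 of the 20 genes had the same sign and those of 9 did not, and the median range within a gene was 0.29, larger than the median change of the members.

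**Figure D5:**
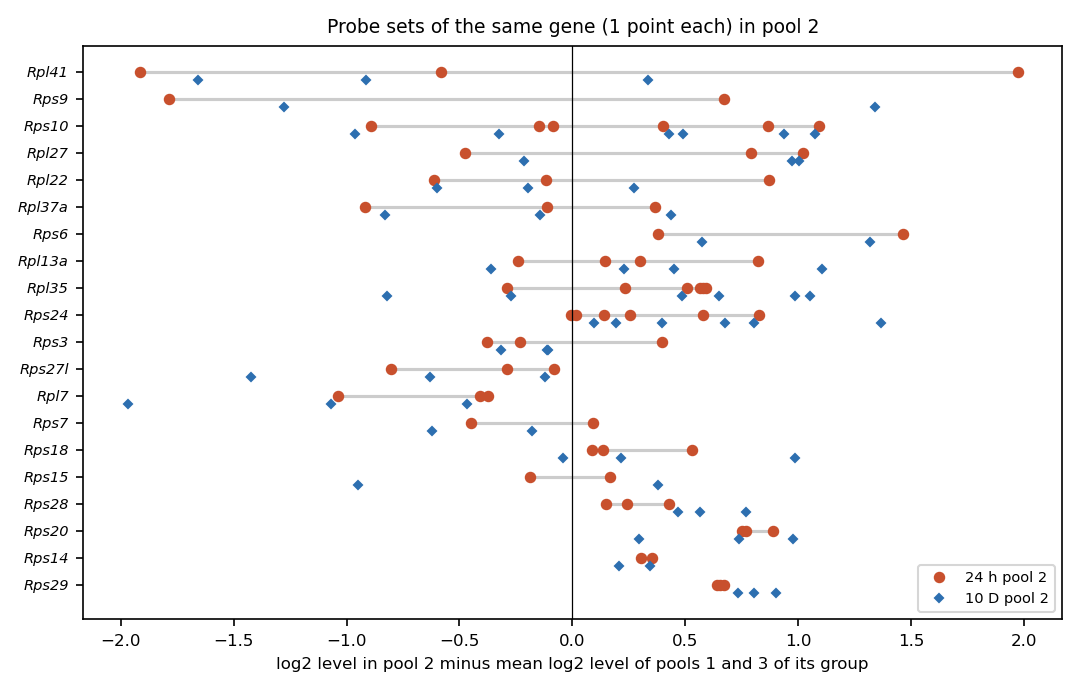
For each of the 20 members with over 1 tested probe set, the log2 level in pool 2 minus the mean log2 level of pools 1 and 3 of the same group, with 1 point per probe set (circles 24 h, diamonds 10 D, a grey line spanning the 24 h points). Probe sets of Rpl41 lie from -1.92 to 1.97 at 24 h, whereas those of Rps29 lie between 0.64 and 0.67.

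The ribosomal protein probe sets that carried several symbols gave similar values. Of 103 tested, 81 were higher in 24 h than in C, against 51.8% of all probe sets. The median log2 change was 0.21 in 24 h against C, 0.15 in 10 D against C and -0.13 in 10 D against 24 h. None passed the adjusted threshold in limma, where 0.456% of all probe sets did in 24 h against C. At an unadjusted p under 0.05 in 24 h against C 11 were higher and 1 was lower, against 8.55% of all probe sets in either direction.

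Other genes of the translation apparatus were described from lists. Over all probe sets tested, 51.8% were higher in 24 h than in C. In limma 0.456% passed in that contrast, and 8.55% had an unadjusted p under 0.05 in either direction. Of 64 ribosome biogenesis genes tested, which act in rRNA synthesis and assembly, 53 were higher in 24 h than in C with a median log2 change of 0.30. In limma 1 of them passed, and 17 were higher and 0 lower at an unadjusted p under 0.05. Tsr1, needed for maturation of the small subunit, rose at 24 h (log2 change 1.12, SE 0.21, adjusted p = 0.0677), with levels of 8.59, 8.15 and 8.58 in C, 15.5, 23.8 and 16.7 in 24 h and 8.05, 7.50 and 8.26 in 10 D. Every 24 h pool was above every C pool, and at 10 D the pools were back at or just under the C values. The paper flagged the residuals of its Tsr1 probe set as not normally distributed and set that probe set aside. Over the list, the median log2 change was 0.01 in 10 D against C and -0.36 in 10 D against 24 h. Translation initiation factors had a median of 0.22 in 24 h (25 of 37 higher, 0 passing in limma, 8 higher and 1 lower at an unadjusted p under 0.05) and 0.15 in 10 D. Other TOP mRNAs outside the rule, mostly translation factors but also the small-subunit proteins Rpsa and Fau (Rps30), had a median of 0.09 in 24 h (11 of 19 higher) and 0.03 in 10 D. The S6 kinase, mTORC1 and Myc genes had a median of 0.24 in 24 h (11 of 16 higher) and -0.03 in 10 D. In the last 2 lists limma passed none in 24 h, with 1 TOP mRNA higher, 5 of the S6 kinase, mTORC1 and Myc genes higher and 1 lower at an unadjusted p under 0.05.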

How the data were processed

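Levels of mRNA were measured on MOE430A and MOE430B oligonucleotide arrays, 18 in all. Images had been quantified by the authors with MAS 5.0, and the deposited values are linear signal intensities, 1 per probe set, not on a log scale. How they were scaled was not given in the sources used here. Every deposited column was mapped to a pool. Signals of 0 were set to 0.05, each array was divided by its median, and log2 values were taken. Genes were named through the platform annotation and a RefSeq gene table. Probe sets under the 25th percentile of mean log2 signal of their chip were left out, which left 33752. A 3-group linear model was fitted on each chip with limma 3.58.1 (lmFit, then eBayes with an intensity trend) in R 4.3.3, and p-values were adjusted over both chips together by Benjamini-Hochberg, with a threshold of 0.1, that is an FDR of 10%. The choice of a fit over all 3 groups gives 1 shared estimate of the spread. The procedure was also run on simulated data with noise drawn independently for each probe set and array. Those data hold no departures shared by pools, so the run cannot show how calls and intervals fare under them. The number of arrays limits the precision.

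The members, lists and tests were chosen with earlier results of these data known. Genes named by rule were those with the 8 smallest p-values at 24 h and the 4 smallest in the other contrasts, the 3 highest and lowest changes in each treated group, and the paralogs, stalk proteins, Rps6, Rpl13a and Rpl11 by name. Other genes were named after their values were seen. Pool numbers were not used to pair samples, because nothing in the labels ties them and deviations of C pools from their group mean correlated between -0.07 and 0.05 with those of the same number in treated groups. Between 24 h and 10 D these correlations were 0.39, 0.56 and 0.10 for pools 1, 2 and 3 on MOE430A and 0.11, 0.16 and 0.0077 on MOE430B. Alternatives tried were other scalings, filters, floors, probe set choices and models, a replicate block, and each pool left out. Values of the lists of markers other than those given above are under the closing section.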

Additional observations from a re-analysis of the deposited data

How the results depend on the processing

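No member passed the threshold in any contrast or in the F test in the 9 fits that left out a pool or in the 15 other alternatives, of which leaving out pool 2 of 24 h and of 10 D together and taking the probe sets with several symbols were chosen after seeing the data. The smallest adjusted p over members lay between 0.129 and 0.878 in 24 h against C. Over all probe sets, the 154 called in 24 h against C became 24 to 432 with a pool left out (432 without 10 D pool 2), 599 without pool 2 of both treated groups, 225 with the 50th percentile filter, 52 with no intensity trend and 100 with the ordinary one-way model. With pools of one number as a replicate block, 0 members passed and the median log2 change at 24 h stayed 0.19. Leaving out 1 pool gave median changes of 0.16 to 0.32 in 24 h, 0.01 to 0.15 in 10 D, and -0.28 to -0.06 in 10 D against 24 h. The promoter count of 13 became 34 when a run within 20 bases of the start was accepted, since that condition is wider. Of 870 single-gene values, 29 changed sign, none of them a call. In 10 D against C, Rplp2 was 0.013 with cyclic loess, Rpl22 was -0.14 as the mean over its probe sets and -0.033 without _x_at and _s_at probe sets, and Rpl35 was then -0.13. Without pool 2 of 24 h and of 10 D, the 24 h change was 0.0895 for Rpl8, 0.34 for Rplp0 and 0.17 for Rps2, and the 10 D change was -0.0095 for Rpl13a, 0.044 for Rpl3l, 0.12 for Rplp0 and 0.094 for Rps27l. With 1 pool left out, 24 h changes ranged from -0.41 to 0.0895 for Rpl8, -0.48 to 0.34 for Rplp0, -0.89 to 0.17 for Rps2, -0.016 to 0.40 for Rps27 and -0.038 to 0.45 for Rps27l, and 10 D changes from -0.37 to 0.11 for Rpl12, -0.0095 to 0.73 for Rpl13a, -0.30 to 0.044 for Rpl3l, -0.70 to 0.12 for Rplp0, -0.11 to 0.14 for Rplp2, -0.0011 to 0.24 for Rps10, -0.49 to 0.13 for Rps27 and -0.28 to 0.094 for Rps27l. The cause of these sign changes was not tested. Members read near or below the array median carry the least signal over background. Of the genes named here for a sign change, only Rpl12 and Rps27 were read at such levels.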

Other observations

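Lists of other genes were described beside the members. Over all probe sets tested, 51.8% were higher in 24 h than in C. In limma 0.456% passed in that contrast, and 8.55% had an unadjusted p under 0.05 in either direction. Among satellite cell and myoblast markers, Myog, a transcription factor of differentiating myoblasts, rose at 24 h (log2 change 2.06, SE 0.34, adjusted p = 0.0531 by limma), with levels of 2.31, 1.54 and 2.36 in C, 9.11, 10.1 and 6.53 in 24 h and 1.31, 2.98 and 2.58 in 10 D. All 24 h pools were above all pools of the other groups, and 3 of the 10 markers were higher in 24 h than in C. Among the leukocyte markers, S100a8, carried by neutrophils, rose at 24 h (adjusted p = 0.0439), with levels of 0.205, 0.0354 and 0.196 in C, 2.78, 2.07 and 2.05 in 24 h and 1.36, 1.47 and 0.468 in 10 D. No fold is given, since the C levels were far below the array median. Over that list 10 of 14 tested markers were higher, with a median log2 change of 0.08, and at an unadjusted p under 0.05 there were 3 higher and 2 lower, the lower ones being Ptprc and Cd79a. Fibroblast markers had a median log2 change of -0.37 in 24 h (1 of 10 higher), adipocyte markers -0.50 (1 of 6 higher) and endothelial markers 0.15 (8 of 10 higher), with none past the threshold in limma and 1 fibroblast marker, 0 adipocyte and 2 endothelial markers at an unadjusted p under 0.05, all higher. Of 9 cell cycle genes 4 were higher and 1 passed, and of 4 erythrocyte markers 2 were higher and none passed, with 0 at an unadjusted p under 0.05.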
